A study of Mus musculus with 2 samples.

Results

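MicroRNA loci of 2 imprinted chromosome regions are described here: Mir296 and Mir298 beside Gnas on chromosome 2, Mir483 in Igf2 and Mir675 in H19 on chromosome 7. They were chosen by name and region, and all 4 were found among the 1973 microRNA loci of the count tables. The counts came from small RNA under 30 bases, sequenced from the facial prominences, the swellings that form the face, of mouse embryos of strain B6NCrl at embryonic day 11.5. There was 1 group with no treatment or altered genotype in its labels, and 2 biological replicates: replicate 1 pooled 109 embryos and replicate 2 pooled 88, of mixed sex. A pool averages over embryos and cell types, and fewer cells of a type cannot be told apart from less of the microRNA per cell.

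Imprinted genes are expressed mainly from the copy inherited from 1 parent, and many of them act on growth before birth. Igf2 encodes a fetal growth factor and is expressed from the paternal copy, whereas the long noncoding RNA H19 is expressed from the maternal copy; both are governed by a shared control region and shared enhancers. Gnas encodes the stimulatory G protein alpha subunit, and Nespas is a paternally expressed transcript on its opposite strand. The counts carry no information on the parental copy, so imprinting itself was not measured.

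All 4 loci lie on the minus strand of GRCm38 (mm10). Mir298 (ENSMUSG00000065410.1; chromosome 2, 174267504 to 174267585) and Mir296 (ENSMUSG00000065521.1; 174267047 to 174267125) are 378 bases apart. Neither overlaps another gene in GENCODE M21, and Mir298 begins 13651 bases beyond the annotated end of Nespas, on the same strand. Mir483 (ENSMUSG00000070140.1; chromosome 7, 142654924 to 142654996) is intronic in all 7 Igf2 transcripts that span it and in 1 transcript of the overlapping gene Gm49394. Mir675 (ENSMUSG00000076275.1; chromosome 7, 142577064 to 142577147) is exonic in 3 of the 4 H19 transcripts that span it, in exon 1 of 2 of them, and its 5′ end is 996 bases from the annotated H19 start. Mir675 and Mir483 are 77776 bases apart, so they are not neighbours in the sense that Mir296 and Mir298 are.

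**Figure D1:**
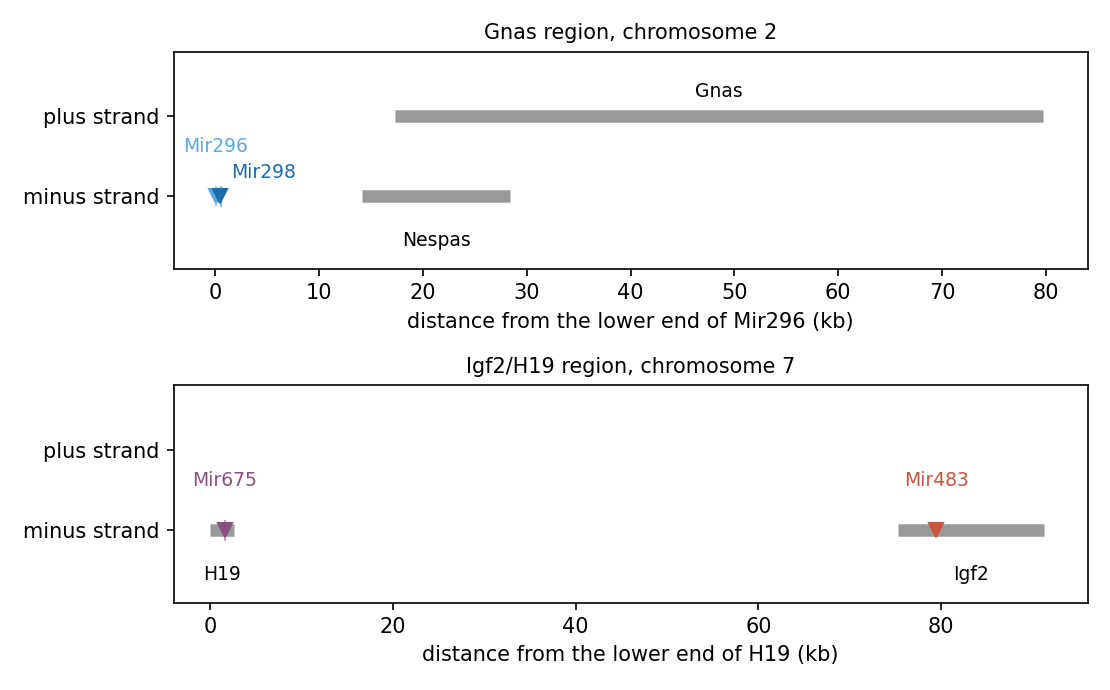
Positions of the 4 microRNA loci (coloured triangles) and their neighbouring or host genes (grey bars) by strand, with distance in kb on the horizontal axis. Mir296 and Mir298 stand together outside the annotated Nespas and Gnas, while Mir675 and Mir483 lie inside H19 and Igf2.

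Each hairpin can release a microRNA from its 5′ arm and its 3′ arm, and the seed, bases 2 to 8, does most of the target recognition. The 8 mature sequences, from RefSeq (GRCm38.p6), are shown because the seeds define what each locus can recognise; capitals mark the seed.
miR-298-5p: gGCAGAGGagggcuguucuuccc
miR-298-3p: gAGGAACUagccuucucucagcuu
miR-296-5p: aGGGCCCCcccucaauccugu
miR-296-3p: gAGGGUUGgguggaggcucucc
miR-483-5p: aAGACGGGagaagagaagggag
miR-483-3p: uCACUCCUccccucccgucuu
miR-675-5p: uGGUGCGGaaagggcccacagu
miR-675-3p: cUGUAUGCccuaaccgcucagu

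No 2 of these 8 seeds are the same, and none occurs as the seed of any other of the 1738 mature mouse sequences in the RefSeq table. The neighbours Mir298 and Mir296 therefore share no seed. The sequences are rich in G and C, with a median of 62.8% against 50.0% over the 591 mature sequences of detected loci (at least 10 sense counts in both libraries). The lowest of the 8 is miR-298-3p at 50.0% and the highest is miR-296-3p at 68.2%. The 5′ arm of Mir296 holds a run of 7 C, the longest single-base G or C run among the 8. The arms of Mir483 are opposite in kind: miR-483-5p is 95.5% purine and has 0 U, while miR-483-3p is 9.52% purine.

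The hairpins of Mir675 and Mir483 are printed as the most and the least stably folding of the 4 per base, with both mature arms in capitals.
Mir675: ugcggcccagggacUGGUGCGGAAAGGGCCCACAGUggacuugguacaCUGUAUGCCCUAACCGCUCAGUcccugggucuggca
Mir483: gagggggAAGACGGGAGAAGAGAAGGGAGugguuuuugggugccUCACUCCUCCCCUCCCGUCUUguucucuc
The predicted minimum folding energy was -0.67 kcal/mol per base for Mir675, and only 4 of the 304 hairpins of detected loci with a RefSeq sequence had a lower one. It was -0.55 for Mir296, -0.52 for Mir298 and -0.46 for Mir483, against a median of -0.43 over the 304. Mir675, the most stable of the 4, had the lowest count, as described next. Mir483, the least stable of the 4, lay below Mir298 and Mir296 in level. The energies are predictions from sequence, and their part in the levels was not tested.

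Reads that fit several genome positions were kept apart by the authors, so a microRNA with a copy loses counts. They made up 22.7% of reads in replicate 1 and 20.5% in replicate 2, and how many came from microRNA loci was not determined. The levels, shares and ranks below are therefore relative to loci of which some may have lost reads. The longest run that any of these hairpins shares with another annotated mouse microRNA hairpin, on either strand, is 13 bases, for Mir483. Among 141767 annotated transcripts, each full mature sequence was found only at its own locus. The arms of Mir675 were also found in its host H19, in which Mir675 is exonic. The unannotated genome was not searched. Neither arm can be read separately, because the tables give 1 value per hairpin.

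Levels are given as CPM, sense counts scaled to 1e+06 per library; 1 count stood for 0.515 CPM in replicate 1 and 0.431 CPM in replicate 2. All 4 loci passed 10 counts in both libraries, as did 351 of all 1973 loci (17.8%). Mir298 and Mir296 were the most abundant of the 4, Mir483 lay 2.61-fold below Mir296, and Mir675 lay 28.6-fold below Mir483. On the opposite strand all 4 had 0 counts in both libraries, which allows up to 3 counts; over 3 such counts in both libraries were found at 20 of the 1973 loci (1.01%).

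Mir298, the upstream member of the pair on the minus strand, had 17015 counts in replicate 1 and 21918 in replicate 2, or 8763 and 9448 CPM. Its mean was 9105 ± 484 CPM (SD, n = 2), rank 27 of all loci. Mir296, a microRNA studied for its action in blood vessel growth, had 15633 and 21026 counts, or 8051 and 9063 CPM. Its mean was 8557 ± 716 CPM, rank 29. The values of the 2 loci overlapped, since Mir296 in replicate 2 was above Mir298 in replicate 1.

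Mir483, the intronic microRNA of Igf2 that is known from Wilms' tumour, had 5924 and 8130 counts, or 3051 and 3504 CPM. Its mean was 3278 ± 321 CPM, rank 58. Mir675, which is excised from H19 and is known for limiting placental growth, had 231 and 255 counts, or 119 and 110 CPM. Its mean was 114 ± 6.40 CPM, rank 217. The exact (Clopper-Pearson) 95% interval of its level, for counting error only, was 104 to 135 CPM in replicate 1 and 96.8 to 124 CPM in replicate 2, so its libraries overlapped and counting error was of the same order as the difference between them.

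**Figure D2:**
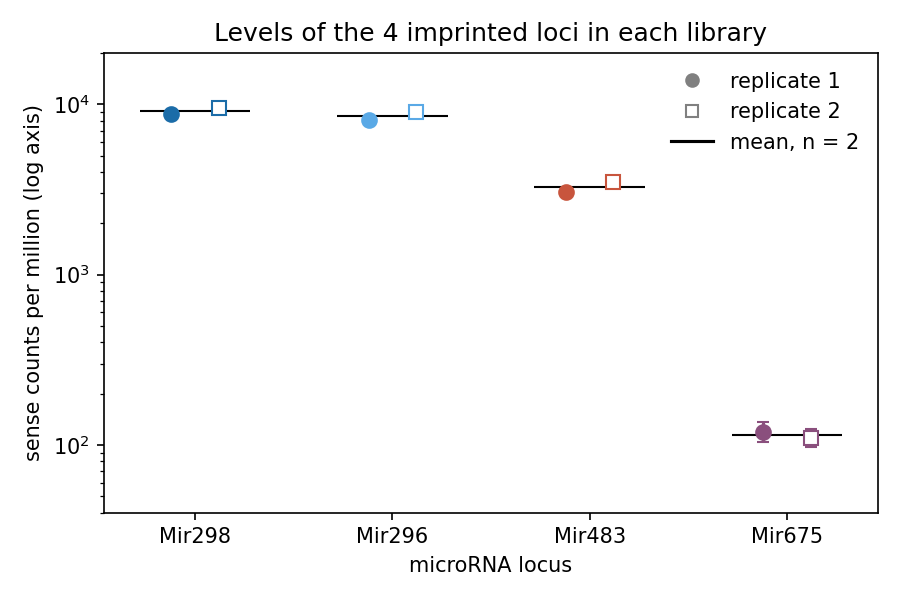
Level of each locus in CPM on a log axis, by library; bars are exact 95% intervals for counting error and lines are means. Mir298 and Mir296 together span 8051 to 9448 CPM and overlap across libraries, with Mir298 the higher within each. Mir483 lies at 3051 and 3504 CPM, and Mir675 at 119 and 110 CPM.

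The order was compared over the 6 pairs. A difference was taken as larger than the spread when, in each library, it exceeded the log2 ratio between the pools of both loci; 5 of the 6 pairs met this. The exception was Mir298 over Mir296, with log2 ratios of 0.12 and 0.06 in the libraries, against a log2 ratio between pools of up to 0.17. Mir298 was still the higher in each library, and this rule does not remove a shift between pools that both loci share. Mir296 exceeded Mir483, the next in order, by a log2 ratio of 1.39 ± 0.02 (2.61-fold). Mir483 exceeded Mir675 by 4.84 ± 0.22, with 25.6-fold in replicate 1 and 31.9-fold in replicate 2. The 2 microRNAs of the Igf2/H19 region were therefore much further apart in level than the 2 of the Gnas region.

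The order was also taken per length. Per 100 bases of hairpin, the level was 11104 CPM for Mir298, 10832 for Mir296, 4490 for Mir483 and 136 for Mir675. The order was the same, but the hairpins, of 73 to 84 bases, differ too little in length to change it. How efficiently each sequence was ligated and amplified was not measured, and its part in the order was not tested.

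Together the 4 loci took 2.00% of sense counts in replicate 1 (95% interval 1.98% to 2.02%) and 2.21% in replicate 2 (2.19% to 2.23%). The Gnas pair supplied 84.1% and 83.7% of that, and Mir675 supplied 0.595% and 0.497%. The Gnas pair exceeded the Igf2/H19 pair 5.30-fold in replicate 1 and 5.12-fold in replicate 2, a log2 ratio of 2.38 ± 0.04.

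Neighbouring microRNAs cut from 1 transcript often differ widely in level, so the closeness of Mir298 and Mir296 was set beside all adjacent loci. Pairs were taken by position alone, and whether Mir298 and Mir296, or the loci of any other pair, share a transcript was not tested. There were 66 pairs on the same strand at most 1 kb apart in which each locus averaged 10 counts or more. The median absolute log2 ratio of levels in these pairs was 2.66 (6.31-fold), and 12 pairs (18.2%) were within 2-fold. Mir298 and Mir296, at 0.09, held place 3 in order of closeness. Their log2 ratios between the pools differed by 0.06, against a median of 0.14 over the 66 pairs, which is place 16. This is a description, as pairs within 1 cluster share members, and levels of loci with near-identical copies are incomplete.

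**Figure D3:**
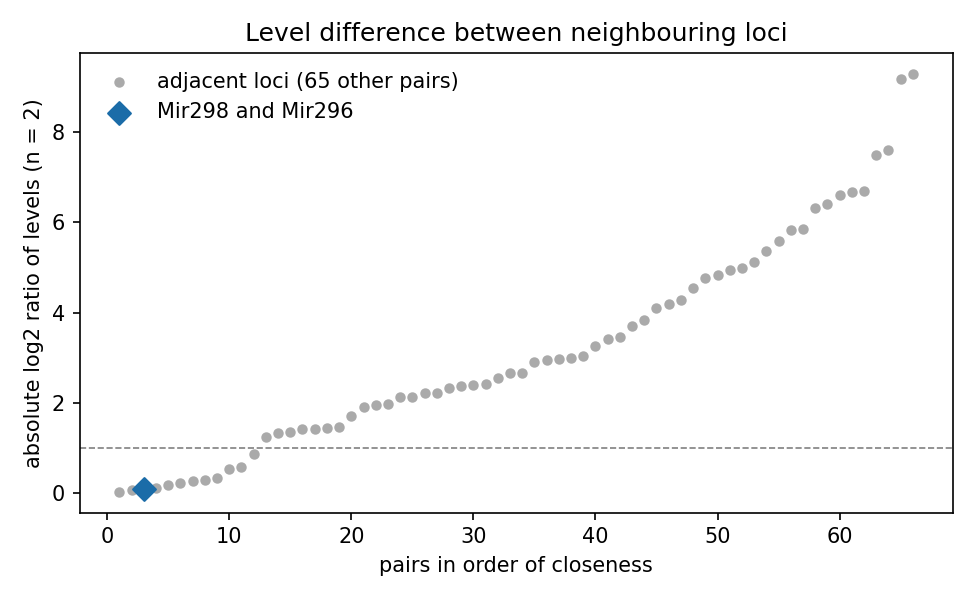
Absolute log2 ratio of levels, as the mean of 2 libraries, for 66 pairs of adjacent loci in order of closeness; the dashed line marks 2-fold. The pair of Mir298 and Mir296 (diamond, 0.09) is in place 3 from the left, while the median pair is at 2.66.

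The pools were then compared, to see how far each level repeats. Among the 363 loci that averaged 10 counts or more, 48 (13.2%) lay past 1.5-fold in either direction and 20 (5.51%) past 2-fold. Among the 257 that averaged 100 counts or more, as each of the 4 does, the shares were 6.23% and 1.95%. None of the 4 imprinted loci passed either limit; this compares 2 libraries of 1 group, with no test. The log2 ratio of replicate 2 over replicate 1 was 0.11 for Mir298 (exact 95% interval for counting error 0.08 to 0.14), 0.17 for Mir296 (0.14 to 0.20) and 0.20 for Mir483 (0.15 to 0.25). It was -0.11 for Mir675 (-0.38 to 0.15), the only one of the 4 that was lower in replicate 2, and its interval holds 0.

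The median absolute log2 ratio was 0.142 over the 4, against 0.179 over the 363 loci and 0.136 over the 257. A larger absolute ratio than that of Mir483 was found at 44.6% of the 363 and 34.6% of the 257. For Mir296 these shares were 52.3% and 42.0%, for Mir675 65.6% and 57.2%, and for Mir298 66.9% and 58.8%. For Mir675 a difference between the pools inside its interval was not detectable at this depth.

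**Figure D4:**
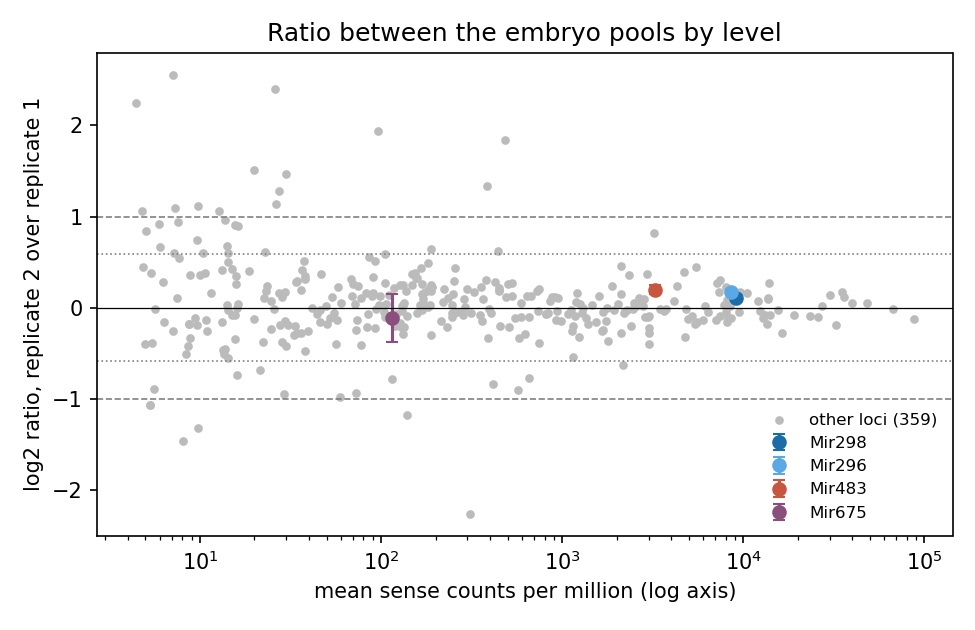
Log2 ratio of replicate 2 over replicate 1 against mean level (log axis) for 363 loci; dotted and dashed lines mark 1.5-fold and 2-fold, and bars are exact 95% intervals for counting error. The 4 imprinted loci, from -0.11 to 0.20, lie inside the dotted lines.

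Cell types that could be in the tissue were checked by their microRNAs. All 4 mesenchymal and all 7 epithelial loci were detected and took 5.20% to 5.52% and 2.95% to 3.31% of counts. Markers of mesenchyme and epithelium were thus present, though they do not single out facial prominence. The 1 endothelial locus, Mir126a, took 3.90% and 4.04%. The 6 measured neural loci, 2 of them with 10 counts in both libraries, took 0.141% and 0.114%. Fetal liver, muscle and placenta are other sites where Igf2 and H19 are strongly expressed. The 2 liver loci took 0.0112% and 0.0143%; of them, the hepatocyte microRNA Mir122 had 31 and 102 counts (log2 ratio 1.46) and Mir192 had 187 and 229 (0.04). The 8 measured muscle loci, 2 of them at 0, took 0.0628% and 0.149%. The placenta-linked loci in Sfmbt2, 34 of 59 at 0, took 0.507% and 0.468%. The muscle, neural and Sfmbt2 lists hold numbered copies, such as Mir1a-1 and Mir1a-2 or Mir124a-1 and Mir124a-2. Reads that fit several genome positions were kept apart, so these shares may be too low and do not show that a tissue was absent. The summed muscle and erythroid lists differed between the pools by log2 ratios of 1.25 and 1.17, more than any of the 4 imprinted loci; the part of these and of Mir122 in the ratios of the 4 was not tested.

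Other imprinted regions give the scale. A list by name, which is not complete, held 123 measured loci from the Dlk1-Dio3 region, Mest, Sfmbt2, the Mir344 loci, Calcr and the 4 described here, and they took 18.3% ± 0.121 of sense counts. The 4 loci supplied 11.5% ± 0.902 of this, or 21.9% ± 0.682 when Mir335 in Mest is left out. Mir298 held place 3 of the 123, Mir296 place 4, Mir483 place 12 and Mir675 place 47. With every locus of the tables that lies between Dlk1 and Dio3 or inside Sfmbt2 added by position, 186 in all, the places were 3, 4, 12 and 50, and the summed share was 18.7% ± 0.123. Only Mir335, at 87317 ± 5140 CPM, and Mir411, the most abundant of the 44 listed and measured Dlk1-Dio3 loci at 10487 ± 853 CPM, were above Mir298, by list or by position. Mir335 exceeded Mir298 by 10.4-fold in replicate 1 and 8.86-fold in replicate 2. These places and shares leave out reads that fit several genome positions, so loci with copies may stand too low.

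The 2 Gnas-region loci alone took 1.77% ± 0.120, against 7.01% ± 0.269 for the 44 listed Dlk1-Dio3 loci, whose median was 409 CPM. Of those 44, 8 were above Mir483 and 36 were above Mir675. By position the region held 59 measured loci with 7.36% ± 0.267 and a median of 249 CPM, of which 8 were above Mir483 and 39 above Mir675. In Sfmbt2, 9 of 59 loci reached 10 counts in both libraries, led by Mir467d at 1761 and 1757 CPM, below Mir483; 6 of the 59 were above Mir675. None of the 13 Mir344 loci reached 10 counts in both libraries, and Mir344f led them at 2.06 and 0.862 CPM. Neither did the pair in Calcr, led by Mir653 at 1.55 and 3.02 CPM. Several Sfmbt2 and Mir344 loci are named as numbered copies, such as Mir467a-1 and Mir467a-2, so their low levels may be incomplete. In the reads counted here, Mir675 was low beside Mir483 and well above the Mir344 and Calcr loci.

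**Figure D5:**
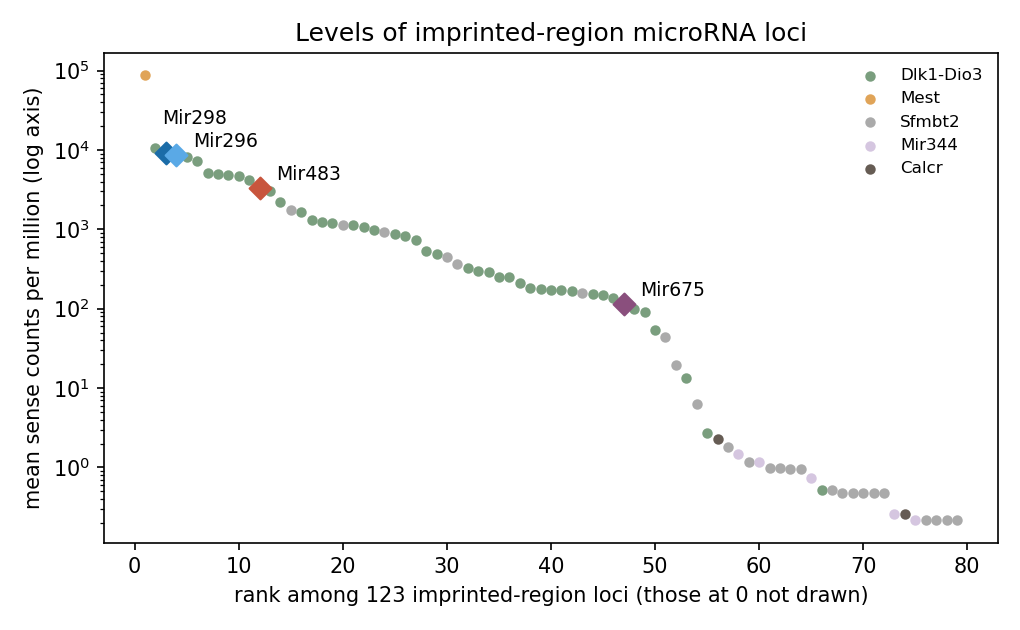
Mean CPM (log axis) of imprinted-region loci in order of level, coloured by region, with the 4 described loci as labelled diamonds. Mir298 and Mir296 hold places 3 and 4, Mir483 place 12 and Mir675 place 47 of the 123 listed loci.

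For each locus, the 3 loci nearest in level were found by the distance of log2(CPM + 1) over both libraries. Mir298 was nearest to Mir130b (9005 and 10132 CPM), then Mir296 and Mir23a. Mir296 was nearest to Mir181d (8380 and 8523 CPM), then Mir487b and Mir125a. Mir483 was nearest to Mir30d (3469 and 3442 CPM), then Mir381 and Mir181b-2. Mir675 was nearest to Mir29c (123 and 110 CPM), then Mir34a and Mir128-1. None of these 12 differences was larger than the spread between the pools, which follows largely from choosing the nearest loci. With 2 libraries of 1 condition, likeness here is of level alone.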

How the data were processed

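Raw counts for each microRNA gene were deposited for mm10 with GENCODE M4, per the file that accompanies each table; which aligner and counter made them is not given in the sources used here. Column 2 of each table equalled sense plus opposite-strand counts at all 1973 loci, and the sense column was used. Sense counts totalled 1941745 in replicate 1 and 2319881 in replicate 2. Lines that name no gene, 59.2% and 65.8% of reads, were left out of library sizes. These include the reads that fit several genome positions, 22.7% and 20.5% of reads. No molecular identifiers are named, so intervals and the limit of 3 counts from a count of 0 cover counting error only. The labels give both pools the same donor entry.

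Symbols and positions (1-based) are those of GENCODE M21, on the same assembly; 1894 of 1973 identifiers matched. Identifiers were matched without versions. Sequences came from RefSeq (GRCm38.p6), where all 4 loci matched, with hairpins identical to GENCODE; folding used ViennaRNA 2.7.2. With 1 group, no test between conditions exists. Alternative library factors were taken from DESeq2 1.42.0 and from the TMM method of edgeR 4.0.16 (R 4.3.3). Counts were handled in Python 3.11.15 with pandas 2.3.3 and scipy 1.17.1. The ratio step was tested on simulated data with counting error alone and larger changes than seen here, so variation between pools was not covered.

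The 4 loci, the lists and the rules were chosen with earlier results of these data known. The rule for names takes the 4 loci, the 3 nearest in level to each, loci sharing a seed, Mir335 and the most abundant locus of each other imprinted region. The comparisons with adjacent pairs, base composition and folding energy, and the set of imprinted loci by position were added after values were seen.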

Additional observations from a re-analysis of the deposited data

How the results depend on the processing

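Levels and ratios between the pools of the 4 loci moved by less than their spread or counting interval with TMM, DESeq2 size factors and counts irrespective of strand (none of the 4 had an opposite-strand count). With 2 libraries, leaving out either gives the value of the other and shows nothing about stability. With all reads of the table as denominator the levels were 3405 CPM for Mir298, 3194 for Mir296, 1222 for Mir483 and 43.1 for Mir675, and the summed share was 0.786%, since the denominator then includes reads that name no gene. Per base of hairpin, the log2 ratio was 0.037 for Mir298 over Mir296, 1.31 for Mir298 over Mir483, 1.27 for Mir296 over Mir483 and 2.25 for the Gnas pair over the Igf2/H19 pair, with no change of direction. The number of loci past 1.5-fold between the pools was 16 at an average of 100 counts or more and 166 with at least 1 count in both libraries, and past 2-fold it was 5 and 90; fewer or more loci were then compared. A ratio between the pools needs both libraries, so it could not be computed with either left out. No paired analysis was possible because there is 1 group. Depth limits Mir675 most, at 231 and 255 counts.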
